A study of Mus musculus with 12 samples.

Results

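The genes described here build ribosomes in the nucleolus. They are Ncl, Npm1, Ddx21, Fbl, Nop56, Nop58 and Nolc1, followed through 6 lists of N4-acetylcytidine (ac4C) peaks from mouse peritoneal macrophages. These 7 members were chosen by their peaks in earlier results of the same lists. Above all, Ncl had a peak in every list, while Npm1 and Ddx21 had peaks at 0 h that were missing from later lists. Ddx21 was missing from all later lists, and Npm1 from all but 1 list at 48 h. They were found by gene symbol, a peak counting for a gene when its centre lay in the gene body. Of the 7 members 4 had a peak, among 1779 protein-coding genes with a peak in any list. Over all protein-coding genes of the reference table, expressed or not, the share with a peak was 8.1%. Because presence and absence of peaks chose the members, these values are a description and carry no test.

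Mouse peritoneal macrophages, phagocytes of the abdominal cavity, were kept in culture with interferon-γ (IFN-γ) for 0, 24 or 48 h. The 12 samples formed 6 groups of 2, ac4C-binding RNA and total RNA at each time, and every group carries the treatment label IFN-γ, the 0 h groups for 0 h. No group was taken at 24 h or 48 h without IFN-γ, so the cytokine and the elapsed time cannot be told apart. The labels give no strain or age and do not say whether the pair of samples in a group stems from different animals or cultures. Each of the 6 deposited lists names its hour and a number but not its sample, so the 2 lists of a time have no order. In such bulk samples fewer cells of a type and less RNA per cell cannot be told apart.

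The nucleolus is where ribosomal RNA is transcribed, cut, modified and packed with proteins into the subunits of the ribosome. Nucleolin (Ncl) binds ribosomal RNA precursors and nucleophosmin (Npm1) is a histone chaperone that helps to export ribosomal subunits. DDX21 is an RNA helicase of ribosomal RNA transcription and processing. Fibrillarin (Fbl) is the methyltransferase of the box C/D small nucleolar ribonucleoproteins, with NOP56 and NOP58 as its core partners, and NOLC1 is a chaperone of these particles. ac4C is written by NAT10, itself a nucleolar enzyme that acetylates the ribosomal RNA of the small subunit and is also known to modify messenger RNA.

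The lists held 611 to 1151 peaks, longest at 0 h. Fragments recovered from the deposited fold and p put the depth of the input, the control of the peak caller, at 91.4% to 100% of the deepest list at 0 h, 73.7% to 80.8% at 24 h and 44.5% to 57.2% at 48 h. Pull-down depth was 78.0% to 91.5%, 98.0% to 100% and 68.5% to 78.0% at the same times. Peaks show enrichment and not expression, so cell identity could be checked only by which markers had a peak. Of 11 macrophage markers 2 did, Itgam in both 0 h lists and Lyz2 in 1 of them. Of 4 mesothelial markers Wt1 had a peak, in 48 h list 2. None of the B cell, T cell, mast cell, neutrophil or fibroblast markers had one.

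Ncl was the member with peaks at every time, and it had 2 of them side by side. Ncl (ENSMUSG00000026234) lies on chromosome 1, and its peaks were centred in exon 3 and exon 4, as the authors number them, in all 6 lists. Recurrence in all 6 lists was seen for 1 of the 4 members with a peak, against 3.32% of the 1779 protein-coding genes with any peak. When peaks of the 6 lists were merged wherever they overlapped, 55 of 2808 regions were found in every list. Of the protein-coding genes, 46 had 1 or more of these regions in the gene body, and Ncl was the only one with more than 1. Not all of the 55 regions lay in protein-coding genes.

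The exon 4 peaks spanned chromosome 1, 86284221 to 86284506 (GRCm39), and had 243 bases in common. Each was 257 to 271 bases long and ran from intron 3 across the exon into intron 4. The fold enrichment, the authors' ratio of pull-down over background at the summit, was 3.64 in 0 h list 1 and 3.18 in 0 h list 2. It was 2.65 and 2.63 in the 24 h lists, then 4.04 and 4.75 in the 48 h lists. The 24 h folds lay below both 0 h folds and the 48 h folds above them, without overlap. How many other regions found in every list have folds apart in this way was not counted, so the pattern cannot be called particular to Ncl. The −log10 q was 18.7 and 15.6 in the 0 h lists, 12.1 and 12.0 a day later, then 25.9 and 20.3 after 48 h. Within its list the peak stood at the percentile of −log10 p of 92.9 to 95.5 at 0 h, 94.8 to 94.9 at 24 h and 98.0 to 98.4 at 48 h.

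The exon 3 peaks spanned chromosome 1, 86284678 to 86285080, with 302 bases in common, and 3 of them reached into intron 3. Their fold was 3.42 and 2.47 in the 0 h lists, 2.77 and 1.61 in the 24 h lists, then 2.39 and 2.65 in the 48 h lists, and the 3 times overlapped. The weakest was that of 24 h list 2, with a −log10 q of 1.89 and a percentile of 70.4. In the other 5 lists the −log10 q was 8.26 to 17.6.

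A further Ncl peak, centred in exon 13, was found in 0 h list 2 alone, at chromosome 1, 86278529 to 86278759. It had the highest fold of any member peak, 6.25, and a −log10 q of 14.1. Introns of Ncl hold small nucleolar RNA genes, which are released when the host transcript is spliced. The exon 13 peak lay 132 bases from Snora75 (86278891 to 86279023), and the exon 4 peaks at least 169 bases from Snord82 (86283983 to 86284052). No Ncl peak overlapped either of them.

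**Figure D1:**
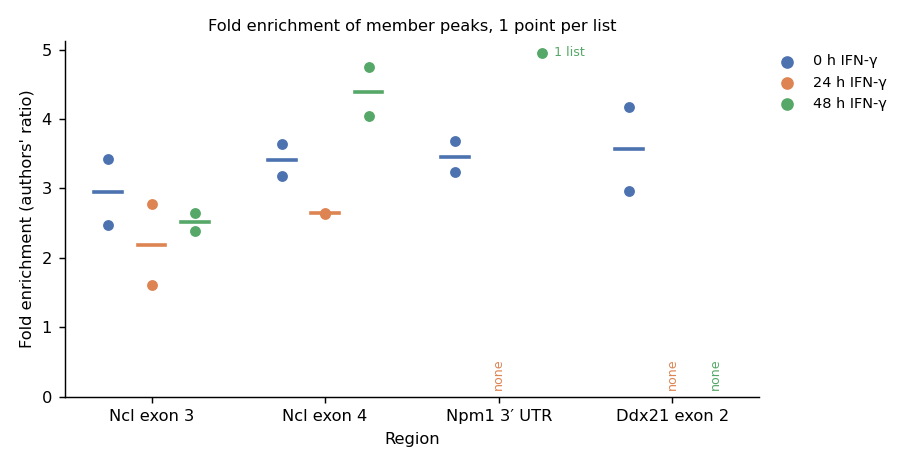
Fold enrichment (vertical axis, the authors' ratio, from 0) of the 4 member regions found in more than 1 list (horizontal axis), with 1 point per list, coloured by time, and a bar at the mean where both lists of a time had the peak. Ncl exon 4 runs from 2.63 to 4.75, Ncl exon 3 from 1.61 to 3.42, and Npm1 and Ddx21 have no point at 24 h.

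Under the Ncl summits both pull-down and input coverage were lower at 0 h than later once scaled for depth, while the unscaled input coverage overlapped between 0 h and 48 h. Fold and p together fix the number of pull-down fragments over a summit and the input coverage there, which was a whole number within 0.001 at all 19 member summits. Over exon 4 the pull-down held 206 and 195 fragments in the 0 h lists, 356 and 316 in the 24 h lists, then 355 and 271 in the 48 h lists. The input coverage there was 24 and 28, then 39 and 39, then 25 and 14. Brought to the depth of the deepest list, the pull-down was 225 and 250.0 fragments for 0 h, 356 and 322.5 for 24 h, then 455 and 395 for 48 h. The scaled input coverage was 24.0 and 30.6 for 0 h, 52.9 and 48.3 for 24 h, then 43.7 and 31.5 for 48 h. All 4 later lists thus lay above both 0 h lists in scaled pull-down and in scaled input, the latter by little in 48 h list 2.

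Exon 3 also had all 4 later lists above both 0 h lists, in scaled pull-down and in scaled input. Its scaled pull-down was 228.5 and 274 fragments for 0 h, 401 and 382 for 24 h, then 456.5 and 441 for 48 h. The scaled input coverage was 26.0 and 43.8, then 57.0 and 94.0, then 75.2 and 65.2. The highest input coverage of the region, in 24 h list 2, came with its lowest fold.

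The scaled values can be set beside those of 53 regions that had a gene-body peak in all 6 lists. In 24.5% of these regions the scaled pull-down was higher in all 4 later lists than in both 0 h lists, and in 24.5% the scaled input coverage was. The median log2 ratio of the mean scaled pull-down to 0 h was -0.24 at 24 h and 0.21 at 48 h over these regions. It was 0.51 and 0.84 for Ncl exon 4, and 0.64 and 0.84 for exon 3. For the scaled input the medians were -0.11 and 0.09, against 0.89 and 0.46 for exon 4 and 1.11 and 1.01 for exon 3. At 24 h, 6 of the regions had a higher pull-down ratio than exon 4 and 5 a higher input ratio, and at 48 h 8 and 18 had. The median log2 ratio of the mean fold to 0 h was -0.14 at 24 h and 0.12 at 48 h over the regions. For exon 4 it was -0.37 and 0.37, with 12 regions higher at 48 h, and for exon 3 -0.42 and -0.22.

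**Figure D2:**
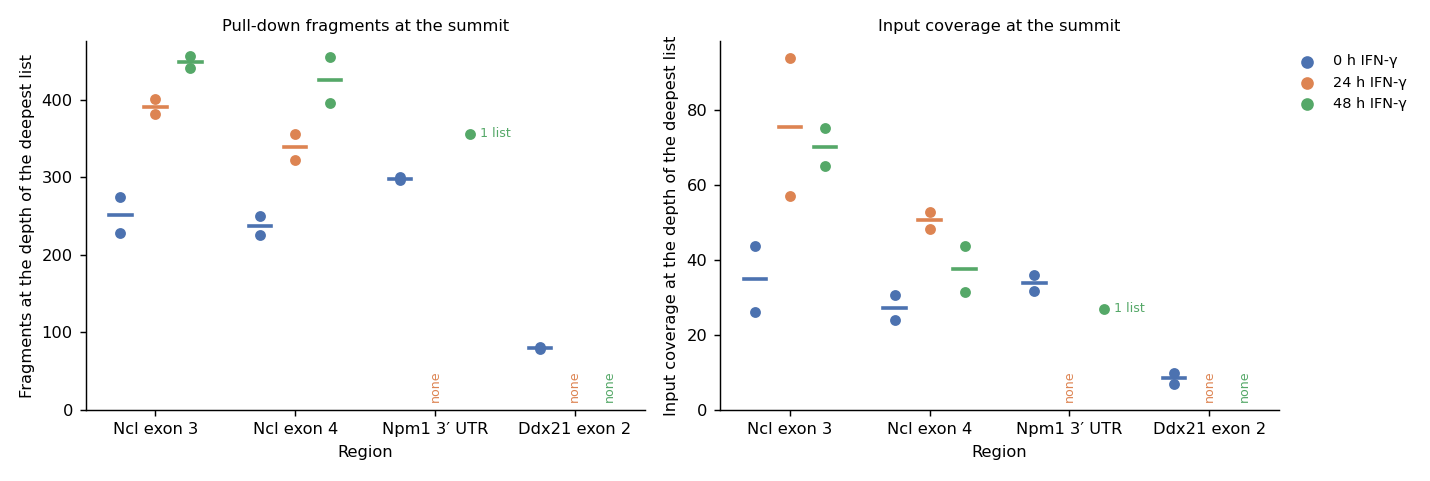
Pull-down fragments (left) and input coverage (right) at the summit of each member region, scaled to the depth of the deepest list (vertical axes, from 0), with 1 point per list and a bar at the mean of 2 lists. Ncl exon 3 and exon 4 are lowest at 0 h on both sides, and Npm1 has 296 and 300.0 scaled fragments at 0 h and 356 in the 1 list that holds its peak at 48 h.

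The summit of the Ncl exon 4 peak varied less in place than that of the exon 3 peak. All 6 exon 4 summits fell within 15 bases. Those of exon 3 fell within 77 bases, at 86284828 and 86284826 at 0 h and at 86284873 to 86284903 in the later lists. The later exon 3 summits lay 56.8 bases on average from those of 0 h, all toward higher coordinates. Among the 53 regions the median shift was 26.2 bases, 18 regions moved further, and 28.3% had all later summits on one side of both 0 h summits.

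**Figure D3:**
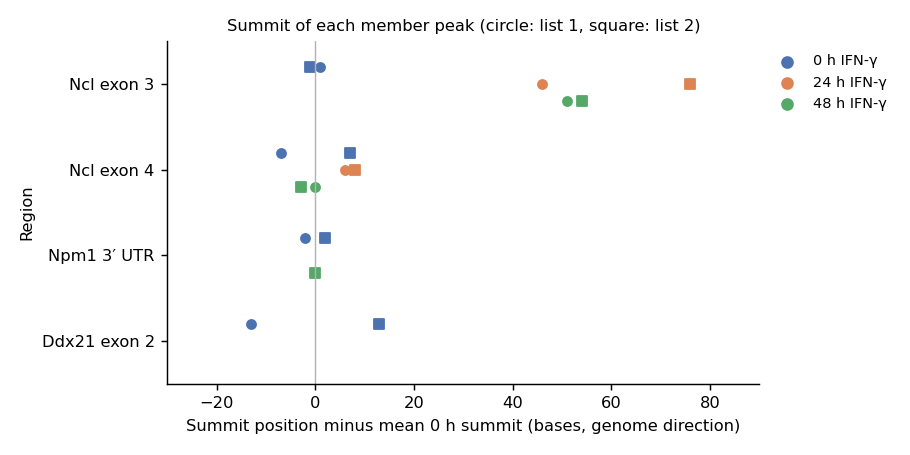
Summit position minus the mean 0 h summit of the same region (horizontal axis, bases in genome direction) for each list, coloured by time, with a circle for list 1 and a square for list 2. The Ncl exon 4 summits and the 1 later summit of Npm1 lie close to 0, and the later exon 3 summits of Ncl lie to the right of both 0 h summits. Ddx21 has only 0 h summits, which lie around 0 by construction.

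Npm1 had 1 region, strong at 0 h, absent at 24 h and present in 1 list at 48 h. The region lay in the 3′ UTR of Npm1 (ENSMUSG00000057113) on chromosome 11, at 33102555 to 33102782 in 0 h list 1, 33102557 to 33102801 in 0 h list 2 and 33102559 to 33102795 in 48 h list 2. The fold was 3.23 and 3.68 at 0 h and 4.95 in 48 h list 2, with a −log10 q of 21.4, 24.1 and 19.0. These peaks stood at percentiles of 96.5, 96.6 and 97.9 of their lists, and their 3 summits fell within 4 bases. The presence of Npm1 at 48 h therefore rests on 48 h list 2, the shallowest list. That list also held a peak of Wt1, the 1 of 4 mesothelial markers with a peak, while the other mesothelial markers had none in any list. Whether depth or other cells had a part in this was not tested. Without 48 h list 2, Npm1 had a peak in both 0 h lists and in no later one.

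The unscaled Npm1 fragments were similar where a peak was found, while the scaled value was highest in 48 h list 2. The pull-down held 271, 234 and 244 fragments in 0 h list 1, 0 h list 2 and 48 h list 2, which scale to 296, 300.0 and 356. The input coverage was 36, 29 and 12, which scale to 36.0, 31.7 and 27.0. The gene has processed pseudogenes in the mouse genome, and the sources used here do not say how reads that match several places were treated.

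The lists that lack the Npm1 peak differ in depth from those of 0 h. All lists end near a −log10 p of 2.3. With the 0 h fragments and input of Npm1 rescaled to the depth of each list without its peak, the −log10 p was 15.8 to 26.3. At that input coverage a summit would have passed from a fold of 1.5 to 1.62 upward. The rescaling takes the RNA level and the enrichment as those of 0 h, and neither is measured where no peak was listed. It starts from the values that chose Npm1, and the part of depth in the missing peaks was not tested.

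Ddx21 had 1 region, in both 0 h lists and in none later. It lay in exon 2 of Ddx21 (ENSMUSG00000020075) on chromosome 10, at 62434025 to 62434297 in 0 h list 1 and 62434023 to 62434349 in 0 h list 2. The fold was 4.17 and 2.96, the −log10 q 7.12 and 2.56, and the percentile 83.2 and 62.7. The pull-down held 74 and 61 fragments over an input coverage of 7 and 9, well below the coverage of Npm1 and of Ncl exons 3 and 4. After scaling the pull-down was 80.9 and 78.2 fragments, closer to each other than the folds were. Rescaled in the same way to the 4 later lists, with the same limits, the −log10 p was 3.71 to 10.1, and a summit would have passed from a fold of 1.9 to 2.23 upward.

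Of the 3 members with a peak in both 0 h lists, Npm1 and Ddx21 had none at 24 h. Both 0 h lists held a peak of 372 protein-coding genes, and 154 of these, 41.4%, had none at 24 h. At 48 h Ddx21 alone of these 3 was without, against 37.9% of those genes. Ddx21 was also the 1 of these 3 with no peak in any of the 4 later lists, against 27.2%. These losses chose the members, and the comparisons of 24 h and 48 h share the 0 h lists, so nothing is read from the counts. The members lost at 48 h were 2 instead of 1 without 48 h list 2, and also without 0 h list 1, where Nolc1 counted as present at 0 h.

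Of the members of the box C/D particle and its assembly, Nolc1 alone had a peak. Fbl, Nop56 and Nop58, the methyltransferase and core proteins of the particle, had none in any list. Among 11 genes of this particle and its assembly 1 had a peak, 9.1%, against 8.1% of all protein-coding genes. The lack of peaks is thus not particular to these genes. Nolc1 (ENSMUSG00000015176) had 1 peak in 0 h list 2, centred in intron 10 at chromosome 19, 46071837 to 46072066. It rested on 11 pull-down fragments over an input coverage of 1, with a fold of 3.07, a −log10 p of 3.23 and a q of 1, at percentile 17.5 of its list. A gene without a peak has no level in these lists, and low RNA and low enrichment cannot be told apart there.

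**Figure D4:**
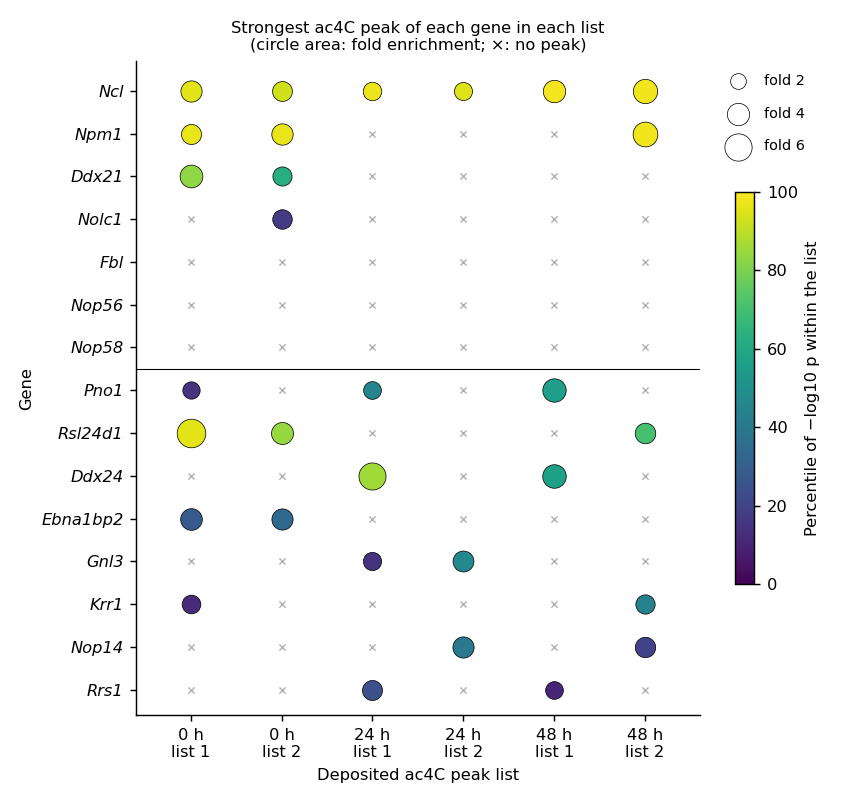
Strongest ac4C peak of each gene (vertical axis) in each deposited list (horizontal axis), with circle area for fold enrichment, colour for the percentile of −log10 p within the list and a cross where no peak was listed. Above the line are the 7 members and below it the 8 other ribosome assembly genes with a peak in 2 or more lists, of which Rsl24d1 alone shares the lists of Npm1.

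A wider list of 177 genes of ribosome assembly, the members included, had 25 genes with a peak in any list, 14.1%. The share over all protein-coding genes was 8.1%, as above, and both shares take peaks of any q. With peaks of a q of 0.05 or less the wider list had 10 such genes, and with a q of 1e-05 or less it had 4. The share over all protein-coding genes was not counted at these q values, so neither count can be set against 8.1%. Without the members it was 21 of 170 genes, 12.4%. Of the 25 genes 14 had a peak in 1 list, 11 in 2 or more and only Ncl, a member chosen by its recurrence, in all 6. Among all protein-coding genes with any peak, 3.32% had one in all 6 lists. By merged region 1776 of 2808 were found in 1 list, but this share was not counted by gene. The genes of the wider list with a peak numbered 11 and 10 in the 0 h lists, 6 and 5 in the 24 h lists, then 5 and 6 in the 48 h lists. Set against the number of protein-coding genes in each list, these counts were 1.33% and 1.42%, 1.13% and 1.05%, then 0.96% and 1.3%.

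By role, peaks were found in 9 of 62 genes of small subunit assembly and 9 of 64 of large subunit assembly. Of 16 genes of RNA polymerase I transcription 2 had a peak, Ubtf and Taf1d, in 1 list at 0 h each. Of the 3 nucleolar chaperones and nucleolin, Ncl and Npm1 had a peak, and their peaks chose them as members. In the remaining classes the genes with a peak were Nolc1 of 11 for the box C/D particle, Naf1 of 6 for the box H/ACA particle and Xrn2 of 15 for the exosome and ribosomal RNA trimming. These few names outside the members were chosen after their values were seen. Nat10 and its adaptor Thumpd1 had no peak.

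Rsl24d1, a large subunit assembly factor, had the strongest of these peaks and the same lists as Npm1. Its 3′ UTR peak lay on chromosome 9, 73030194 to 73030497 in 0 h list 1, and had a fold of 6.59 and 3.89 at 0 h and 3.4 in 48 h list 2. The −log10 q was 18.8, 7.31 and 2.15, and the scaled pull-down 114, 104 and 128 fragments. Ebna1bp2, another factor of the large subunit, had the lists of Ddx21, at folds of 3.78 and 3.62 on 18 fragments each and a −log10 q of 0.12 and 0.26. Its centre lay in the last exon in 0 h list 1 and in the last intron in 0 h list 2.

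With these, 5 genes of the wider list were present in both lists of 0 h: Ncl, Npm1, Ddx21, Rsl24d1 and Ebna1bp2. At 24 h 4 of the 5 had none, and at 48 h 2 of the 5, Ddx21 and Ebna1bp2. Over all protein-coding genes these shares were 41.4% and 37.9%, as above. Ncl, Npm1 and Ddx21 are among the 5 and were chosen by these same peaks, so nothing is read from these counts. Outside the members only Rsl24d1 and Ebna1bp2 remained. With 0 h list 1 left out, 9 of the 10 genes in 0 h list 2 had none at 24 h and 7 had none at 48 h. With 0 h list 2 left out instead, these were 9 and 6 of the 11 genes in 0 h list 1. Without 48 h list 2, 4 of the 5 genes had none at 48 h. The shares over all protein-coding genes were not counted with a list left out, so these counts cannot be set against 41.4% and 37.9%. In both 24 h lists 2 genes of the wider list had a peak, Ncl and Gnl3, the nucleolar GTPase nucleostemin. Gnl3, 1 of these 2, had none at 0 h, against 22.4% of the 192 protein-coding genes present in both 24 h lists. Its exon 2 peaks had folds of 2.68 and 3.52 and a −log10 q of 0 and 0.05.

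The other 5 recurrent genes had a peak in no more than 1 list of any time. Ddx24, a helicase gene, had a last-exon peak at a fold of 5.93 in 24 h list 1 and 4.47 in 48 h list 1. The −log10 q of these peaks was 4.83 and 1.0. Nop14, of small subunit assembly, had an exon 8 peak at folds of 3.63 in 24 h list 2 and 3.35 in 48 h list 2, each with a q of 1. Rrs1, of large subunit assembly, had peaks in 24 h list 1 and 48 h list 1, at folds of 3.23 and 2.53. The first was centred in the last exon and the second in the 3′ UTR. Pno1, of small subunit assembly, had a 3′ UTR peak in 0 h list 1 and 24 h list 1 and a peak in intron 3 in 48 h list 1. The Krr1 peaks of 0 h list 1 and 48 h list 2 lay in different regions, and the second overlapped another gene. No peak of Nop14, Rrs1, Pno1 or Krr1 had a q of 0.05 or less, and of the Ddx24 peaks only that of 24 h list 1 had.

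Genes most like each member were taken as those with a peak in exactly the same lists and the smallest mean difference in percentile. For Ncl, among 58 other genes in all 6 lists, they were Ifrd1, Gsk3b, Cfl1, Arf3 and Rab7, at mean differences of 2.08 to 3.46 percentile points over 6 lists. For Npm1, among 32 other genes with its 3 lists, they were Map3k12 and Pcbp2, which share 1 peak, Ptma, Adcy9 and Calm2, at 0.82 to 6.66 points. For Ddx21, among 100 other genes of the 0 h lists alone, they were Rplp1, Ppp1cb, Rpa1, Gsr and Sdhd, at 3.85 to 7.22 points. The mean percentile of the member was 96.1, 97.0 and 73.0 for Ncl, Npm1 and Ddx21, and the median over the genes with the same lists 72.4, 54.3 and 48.7.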

How the data were processed

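ac4C-binding RNA and total RNA of peritoneal macrophages were sequenced, and the 6 deposited peak lists were analysed. BWA 0.7.12, MACS2 2.1.0 and GRCm39 are named in the submitters' processing notes; the sources used here give neither their settings nor the control library. Per the file headers, each summit has the authors' fold enrichment (a ratio) and their p-value and q-value as deposited −log10 values. The peak score, 6 columns, was not used.

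The members and gene lists were chosen with earlier results of these data known. All 7 members were named, and the ribosome assembly genes in 2 or more lists. A peak was 1 region, with its strongest summit. Protein-coding genes came by symbol from a RefSeq table of GRCm38.p6, which matched 94.4% of 2095 symbols. Pull-down fragments and input coverage were solved from fold and p (Poisson upper tail, 1 factor per list); 100% of summits matched within 0.005 of −log10 p. The solution was checked on data made with known answers. Relative input depth was the lowest input coverage of a list. Gene-body regions found in all 6 lists numbered 53 of 55. Coordinates are printed as deposited, and a start may be off by 1 base. Python 3.11.15 and SciPy 1.17.1 were used. Alternatives were a q of 0.05 or 1e-05, a fold of 4, equal list length, matched input coverage, other gene assignments and leaving out each list. No sequence of GRCm39 was used here.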

Additional observations from a re-analysis of the deposited data

Results flagged for a closer look

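The fold of the Ncl exon 4 peak moved in opposite directions at the 2 later times: the mean of the 24 h lists minus that of the 0 h lists was -0.77, and that of the 48 h lists 0.98, with both lists of each time on the same side of both 0 h lists. Over the 53 regions found in all 6 lists the median log2 ratio of the mean fold to 0 h also had opposite signs, -0.14 at 24 h and 0.12 at 48 h, and was -0.37 and 0.37 for Ncl exon 4. How many of the 53 regions have folds apart between the times in the same way was not counted. The difference was not tested, and the folds come from lists of different depth that share the 0 h lists.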

How the results depend on the processing

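Over the alternatives 108 of 136 values stayed within 1.5 times the reported one. Some of these values could not move, since leaving out a 24 h list cannot change a loss at 48 h. The tally is therefore no measure of stability. Under every alternative except a fold of 4 or more, Ncl had a peak in every list kept. With a fold of 4 or more Ncl had 3 lists, Npm1 had 1 instead of 3 and Ddx21 1 instead of 2. At that fold 0 members were in all 6 lists, 0 were lost at 24 h or 48 h, and the wider list had 12 genes with a peak and 0 losses at either time. At a q of 1e-05 or less Ddx21 had a peak in 1 list, so 1 member was lost at 24 h and 0 at 48 h; the wider list had 4 genes with a peak, 2 losses at 24 h and 1 at 48 h. At a q of 0.05 or less it had 10 genes with a peak and 1 loss at 48 h. Equal list length and assignment by exon each left 1 loss at 48 h in the wider list. With each list left out in turn, members lost at 48 h ranged from 1 to 2, lists with a Ddx21 peak from 1 to 2, and losses in the wider list from 4 to 9 at 24 h and 2 to 7 at 48 h; the highest counts in the wider list came without a 0 h list, where 1 list defines 0 h. A reciprocal overlap of 50% changed no recurrence of a member region. Shares over all protein-coding genes were not counted under any alternative, so the counts of genes and losses given here have none beside them. The Nolc1 peak, on 11 fragments, had a −log10 p of 1.87 at matched input coverage, under the 2.3 where the lists end. No paired analysis was possible because the lists carry no sample.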
